A study of Danio rerio with 3 samples.

Results

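The genes described here are the zinc-finger genes of zebrafish (Danio rerio) that carry a low number, of the kind that names genes of other vertebrates. They were taken as every gene whose symbol is znf, a number below 900 and at most 1 further letter, and which reached an FPKM of 1 in any library. The choice rests on names alone, and whether each gene, such as znf569l, znf45l or znf16l, has a counterpart elsewhere was not checked. FPKM counts sequenced fragments per kilobase of a transcript, relative to all fragments mapped in the library. Of 25386 genes in the table, 101 had such a name and 84 of those passed the FPKM limit. The just-included genes were znf469, znf821 and znf362b, whose highest values were 1.22, 1.26 and 1.36 FPKM. The nearest genes left out were znf341, znf541 and znf148, with highest values of 0.79, 0.67 and 0.66 FPKM.

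Poly(A) RNA of whole, dechorionated wild-type embryos was sequenced in 3 libraries, 1 per group. WGA embryos at 5 hours post fertilisation (hpf), which looked like dome stage, and WGA embryos at 4.3 hpf had both received 0.65 ng of wheat germ agglutinin in 1 nl of water, injected into the yolk when they were 1 cell. Control embryos at 4.3 hpf (dome stage) were wild type, with no treatment given and no mock injection named. Wheat germ agglutinin is a lectin that binds sugar-bearing nucleoporins and hinders passage through nuclear pores, and the study asked how this affects the onset of zygotic transcription. The 5 hpf library can be set against the control as stage-matched by appearance, and the 4.3 hpf library as time-matched. How many embryos made up each library is not stated.

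Zinc fingers are small folds in which a zinc ion is held by cysteine and histidine residues. Strings of the C2H2 kind read DNA sequence in most of these proteins, and a minority bind RNA or other proteins instead. Many low-numbered genes have a recognisable counterpart in mammals, whereas many high-numbered genes of zebrafish belong to large arrays expanded within fish. Before the zygotic genome starts up, the embryo lives on maternal mRNA, so a level in these libraries is the sum of stored maternal transcript and new zygotic transcript. In whole-embryo RNA, fewer cells of a type and less RNA per cell cannot be told apart.

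With 1 library in each group no difference below has a replicate check, and no test was run. Each difference is a log2 ratio of (FPKM + 1), and folds are on that scale, which understates the change of low genes. The limit for calling a gene higher or lower was a difference of at least 2-fold. The library sums were 411178 FPKM in WGA embryos at 5 hpf, 401114 in WGA embryos at 4.3 hpf and 430459 in control embryos. The stage markers nanog, pou5f3, sox19b, vox, klf17, ta, gsc and krt4 were all listed above 2 FPKM in each library. In WGA embryos at 5 hpf klf17 was 4.49-fold lower than control, vox 3.47-fold, gsc 3.29-fold, krt4 2.56-fold and ta 1.98-fold. There pou5f3 was 1.71-fold and nanog 1.13-fold lower, and sox19b was 5.08-fold higher. The matched stage named below is therefore a match of embryo appearance, not of these markers. The depth behind each value is unknown, since FPKM carries no read numbers, and values are given without counting intervals.

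Most of the 84 genes were present at moderate levels in all 3 libraries. Their median was 12.6 FPKM in WGA embryos at 5 hpf, 14.0 FPKM in WGA embryos at 4.3 hpf and 10.9 FPKM in control embryos. In the same order 83, 83 and 78 of them reached 1 FPKM, and 11, 13 and 11 reached 50 FPKM. The 6 genes under 1 FPKM in control embryos were znf462, znf821, znf362a, znf362b, znf365 and znf469, which entered through a WGA library alone. The gene under 1 FPKM in WGA embryos at 4.3 hpf was znf703, and at 5 hpf it was znf469.

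The most abundant was znf395a, whose human counterpart binds a control region of the Huntington disease gene. It stood at 197.98 FPKM in WGA embryos at 5 hpf, 186.38 FPKM in WGA embryos at 4.3 hpf and 224.72 FPKM in control embryos. The double-stranded RNA binder znf346 stood at 132.76, 126.32 and 145.5 FPKM in the same order. Both lay slightly below control in each WGA library. The kinetochore gene znf207a, whose product helps load Bub3 on chromosomes, stood at 125.29 FPKM in WGA embryos at 5 hpf, 102.89 FPKM in WGA embryos at 4.3 hpf and 129.26 FPKM in control embryos. The GC-box factor gene znf281b, whose mouse counterpart restrains pluripotency genes, was close to level at 126.09, 129.07 and 122.75 FPKM in that order. A further pair of abundant genes lay above control in both WGA libraries without reaching 2-fold. For znf706, whose mouse counterpart helps stem cells leave self-renewal, the values were 165.08 FPKM in WGA embryos at 5 hpf, 138.0 FPKM in WGA embryos at 4.3 hpf and 91.61 FPKM in control embryos. For znf280d they were 109.86, 110.66 and 82.55 FPKM in that order. The remaining genes of the 8 most abundant, znf131 and znf292b, are given with their groups below.

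**Figure D1:**
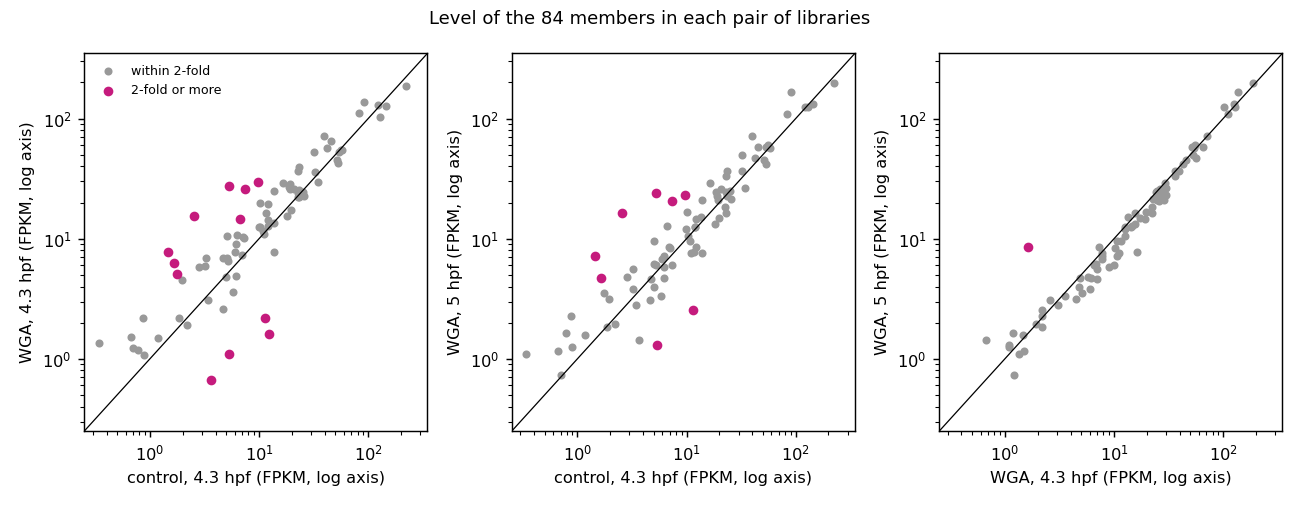
FPKM of the 84 genes in WGA embryos at 4.3 hpf against control (left), WGA at 5 hpf against control (middle) and WGA at 5 hpf against WGA at 4.3 hpf (right), on log axes with the line of equality. Each point is 1 gene, and coloured points differ by 2-fold or more on the FPKM + 1 scale: 12 genes on the left, 8 in the middle and 1 on the right.

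At the matched time, WGA embryos at 4.3 hpf differed from control embryos by 2-fold or more in few of these genes: 8 were higher, 4 were lower and 72 lay within 2-fold. Over all 14349 genes that reached 1 FPKM in any library, 7.16% were higher and 8.92% were lower by this rule. The shares among the zinc-finger genes were 9.52% higher and 4.76% lower. The higher share moved with the setting: 17.9% against 11.1% of all genes with TPM, 17.9% against 10.6% with a pseudocount of 0.1, 31.0% against 18.0% at a fold of 1.5, and 45.2% (38 genes) against 27.9% with ribosomal protein scaling. Their median log2 ratio was 0.30 (SD over members 0.74), against 0.03 over all genes. Of the 84 genes 57 (67.9%) lay above control, compared with 52.2% of all genes. Those 57 include znf462, znf821, znf362a, znf362b, znf365 and znf469. They were under 1 FPKM in control embryos, so the FPKM limit favoured that side for them. The median lay above that of all genes by 0.27 to 0.29 under every scaling tried. Each scaling multiplies all genes of a library by the same factor, which shifts both medians almost alike. The gap is therefore no check on the difference. The scalings did move the median of all genes itself. It lay at 0.67 with ribosomal protein scaling and at 0.13 with TPM, which rescales each library to the same sum.

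The highest gene was znf106b, a counterpart of the RNA-binding ZNF106 that mice need for motor nerve and muscle upkeep. It stood at 16.51 FPKM in WGA embryos at 5 hpf, 15.46 FPKM in WGA embryos at 4.3 hpf and 2.56 FPKM in control embryos. At the matched time it was 4.62-fold higher than control. Next came znf652, whose human counterpart is a repressor that works with CBFA2T3. Its values were 23.85 FPKM in WGA embryos at 5 hpf, 27.22 FPKM in WGA embryos at 4.3 hpf and 5.28 FPKM in control embryos, 4.49-fold higher than control at the matched time. The 2 WGA libraries lay close together for both genes, far above the control library. The gene znf296, whose mouse counterpart binds the reprogramming factor Klf4, stood at 7.21 FPKM in WGA embryos at 5 hpf, 7.75 FPKM in WGA embryos at 4.3 hpf and 1.45 FPKM in control embryos (3.57-fold higher at the matched time). The ZFX-family activator gene znf711, whose human counterpart is mutated in X-linked intellectual disability, was at 20.46, 26.09 and 7.37 FPKM in that order (3.24-fold higher). The other genes higher by 2-fold or more were znf609a, znf687a, znf592 and znf292a, at 2.89-fold to 2.04-fold, and znf292a fell just short of 2-fold under median-of-ratios scaling.

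The lowest gene was znf185, which despite its name belongs to the LIM-domain proteins tied to the actin cytoskeleton. It stood at 8.57 FPKM in WGA embryos at 5 hpf, 1.62 FPKM in WGA embryos at 4.3 hpf and 12.28 FPKM in control embryos. That made it 5.07-fold lower than control at the matched time, and the 5 hpf library lay nearer to control than to the other WGA library. The gene znf569l stood at 2.54 FPKM in WGA embryos at 5 hpf, 2.2 FPKM in WGA embryos at 4.3 hpf and 11.35 FPKM in control embryos, 3.86-fold lower at the matched time. For znf281a the values were 1.31, 1.09 and 5.33 FPKM in that order, 3.03-fold lower at the matched time. Both genes were low to a similar degree in the 2 WGA libraries. The corepressor gene znf703, which acts with Groucho proteins in the zebrafish hindbrain, stood at 1.44 FPKM in WGA embryos at 5 hpf, 0.67 FPKM in WGA embryos at 4.3 hpf and 3.66 FPKM in control embryos, 2.79-fold lower at the matched time. In all, 27 of the 84 genes lay below control at the matched time. Farthest below among those short of 2-fold were znf45l (1.68-fold lower), znf319b (1.57-fold) and znf16l (1.48-fold).

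**Figure D2:**
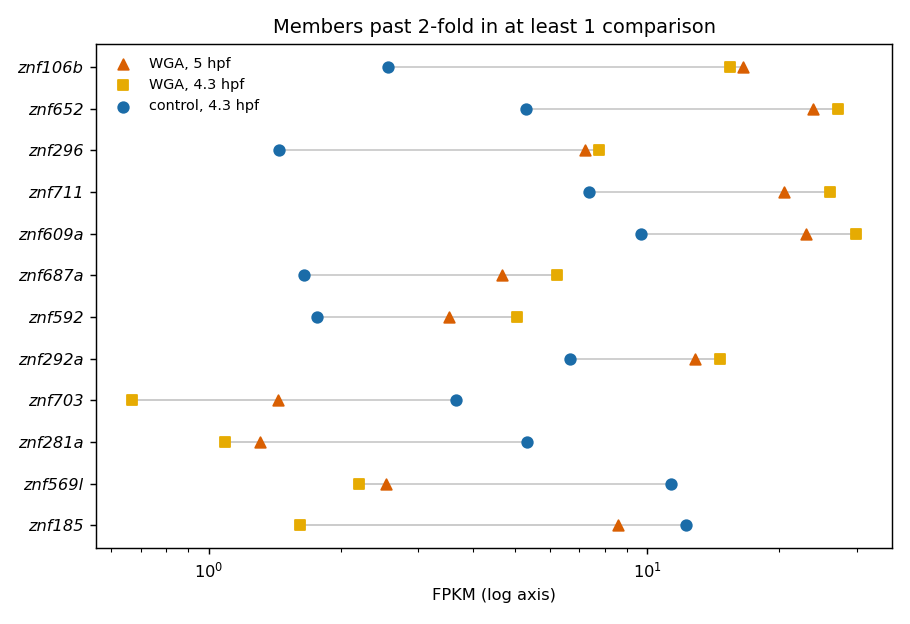
FPKM (log axis) of the 12 genes that differed by 2-fold or more in at least 1 comparison, ordered by the log2 ratio of WGA embryos at 4.3 hpf over control. Each gene has 1 value per library: triangles for WGA at 5 hpf, squares for WGA at 4.3 hpf, circles for control. The upper 8 genes have both WGA values above control and the lower 4 have both below it, with znf185 the gene whose WGA values lie farthest apart.

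At the matched stage, WGA embryos at 5 hpf set against control embryos at 4.3 hpf, 6 of the 84 genes passed the limit upward, 2 passed it downward and 76 lay within 2-fold. The background over all 14349 genes was 5.23% higher and 7.82% lower, and the zinc-finger genes stood at 7.14% and 2.38%. Their median log2 ratio was 0.14 (SD over members 0.63), against -0.02 over all genes, and 52 of 84 (61.9%) lay above control, compared with 47.8% of all genes. Those 52 again include the genes that entered through a WGA library alone, whose side the FPKM limit favoured. The genes higher were znf106b at 4.92-fold, znf652 at 3.96-fold, znf296 at 3.35-fold, znf711 at 2.56-fold, znf609a at 2.24-fold and znf687a at 2.14-fold. The lower genes were znf569l at 3.49-fold and znf281a at 2.74-fold. The gene znf703 had a log2 ratio of -0.93 and passed 2-fold with a smaller pseudocount or TPM, while znf185 had a log2 ratio of -0.47. Both comparisons with control use the same control library, so their shared members are not independent evidence.

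Between the WGA libraries the 84 genes differed little. In WGA embryos at 5 hpf against WGA embryos at 4.3 hpf, znf185 was 3.65-fold higher and no gene was lower by 2-fold or more. The background over all genes was 0.725% higher and 0.335% lower. The median log2 ratio was -0.12 (SD over members 0.32), against -0.04 over all genes, and 60 of 84 genes (71.4%) lay below the earlier library, compared with 57.3% of all genes. Nearest to the limit on the lower side was znf143b, whose product activates small nuclear RNA promoters and helps anchor chromatin loops. It stood at 7.69 FPKM in WGA embryos at 5 hpf, 16.24 FPKM in WGA embryos at 4.3 hpf and 11.68 FPKM in control embryos, a log2 ratio of -0.99 between the WGA libraries. Control thus lay between the 2 WGA values. The genes znf277, znf438 and znf507 followed with log2 ratios of -0.64, -0.54 and -0.54.

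The chromatin and corepressor group had the highest median of the role lists, which were chosen with earlier results of these data known. At the matched time 4 of its 13 measured genes (30.8%) were at least 2-fold higher and 0 at least 2-fold lower. Of all genes 7.16% were higher and 8.92% lower. In the group 11 genes (84.6%) lay above control, against 52.2% of all genes. Of these znf462 entered through a WGA library alone. The corepressor gene znf703, 2.79-fold lower at the matched time, was placed with the developmental regulators and is not counted here. The same holds for its relative znf503, with a log2 ratio of -0.02 at the matched time. The median log2 ratio of the group was 0.74. At the matched stage 3 were higher (23.1%), 0 lower and the median was 0.58, where 5.23% of all genes were higher and 7.82% lower. Under median-of-ratios scaling these medians were 0.66 and 0.55, and under ribosomal protein scaling 1.33 and 0.92. The medians of all genes were -0.04 in both comparisons under the former and 0.67 and 0.30 under the latter. Besides znf652 the higher genes were the following. For znf609a, whose mouse counterpart works with the cohesin loader Nipbl, the values were 22.99 FPKM in WGA embryos at 5 hpf, 29.94 FPKM in WGA embryos at 4.3 hpf and 9.69 FPKM in control embryos. The genes znf592 and znf687a encode relatives that, in human cells, join the chromatin reader ZMYND8 in 1 complex. For znf687a the values were 4.67, 6.22 and 1.65 FPKM in the same order, and for znf592 they were 3.54, 5.05 and 1.77 FPKM. In each of these 3 genes the 4.3 hpf WGA library was highest and control lowest. Nearer to control were znf644a, whose human counterpart guides the methyltransferase G9a (1.75-fold higher at the matched time), znf217, of the CoREST and CtBP complexes (1.67-fold higher), and znf462 (1.71-fold higher, at 2.2 FPKM in WGA embryos and 0.87 FPKM in control embryos). The SUMO ligase gene znf451 was level at the matched time, at 11.04 FPKM in WGA embryos and 11.01 FPKM in control embryos, and stood at 7.6 FPKM in WGA embryos at 5 hpf. The remaining genes znf407, znf507, znf518b, znf609b and znf687b differed by at most 1.66-fold from control in both comparisons.

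Promoter-binding factors were mostly close to control. Of 13 measured genes 1 was higher (znf711) and 1 lower (znf281a) at each of the 2 comparisons with control, 7.69% each. Of all genes 7.16% were higher and 8.92% lower at the matched time, and 5.23% and 7.82% at the matched stage. The group medians were 0.07 at the matched time and 0.05 at the matched stage. The median at the matched time was -0.004 under median-of-ratios scaling. The gene znf131 stood at 72.06 FPKM in WGA embryos at 5 hpf, 71.29 FPKM in WGA embryos at 4.3 hpf and 39.7 FPKM in control embryos, 1.78-fold higher at the matched time. The znf143 relative znf76 was at 15.13, 13.54 and 13.58 FPKM in that order, and znf143a was at 24.83, 24.7 and 25.19 FPKM. Both were level across the 3 libraries. The gene znf410, whose human counterpart controls CHD4, had log2 ratios of -0.27 and -0.33 at the matched time and stage. The pair znf362a and znf362b lay near the FPKM limit, at 1.63 and 1.1 FPKM in WGA embryos at 5 hpf, 1.19 and 1.36 FPKM in WGA embryos at 4.3 hpf, and 0.78 and 0.34 FPKM in control embryos. Also within 2-fold were znf740a, znf740b and znf384l, which the current gene table lists as znf384a.

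Most genes of RNA handling and ribosomes lay close to control. The exceptions were znf106b and, short of 2-fold, znf706 (log2 ratios of 0.59 at the matched time and 0.84 at the matched stage). The gene znf106b was the 1 higher gene of the 9 measured (11.1%) in each comparison with control, and 0 were lower. Of all genes 7.16% were higher and 8.92% lower at the matched time, and 5.23% and 7.82% at the matched stage. The medians of the group were 0.08 and 0.11 at the matched time and stage. The first of these was -0.003 under median-of-ratios scaling. The gene znf598, whose product marks collided ribosomes with ubiquitin, stood at 46.83 FPKM in WGA embryos at 5 hpf, 56.51 FPKM in WGA embryos at 4.3 hpf and 42.25 FPKM in control embryos. For znf622, needed late in assembly of the large ribosomal subunit, the values were 60.29, 55.14 and 55.97 FPKM in that order. The related assembly gene znf593 was at 26.3, 29.88 and 34.49 FPKM, and the splicing-linked gene znf326 was at 58.31, 52.28 and 53.81 FPKM. These 4 genes differed from control by at most 1.33-fold. The nucleolar gene znf330 and the gene znf106a differed by at most 1.19-fold.

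Cell division genes were measured in 4 cases, with 0 past 2-fold in any comparison. Of all genes at most 8.92% were past 2-fold in a given direction in any comparison. Of the Bub3 loaders, znf207b stood at 13.32 FPKM in WGA embryos at 5 hpf, 15.59 FPKM in WGA embryos at 4.3 hpf and 18.2 FPKM in control embryos. It lay on the same side of control as znf207a, by 1.16-fold at the matched time and 1.34-fold at the matched stage. The gene znf365, tied to centrosomes and genome stability in human cells, was at 1.17, 1.51 and 0.67 FPKM in that order, and znf367 was at 10.59, 12.62 and 10.27 FPKM. The group medians were 0.03 at the matched time and -0.002 at the matched stage, and the signs of both changed between scalings.

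Developmental regulators had 1 higher gene (znf292a) and 1 lower gene (znf703) of 12 measured at the matched time (8.33% each), and 0 of either at the matched stage. Of all genes 7.16% were higher and 8.92% lower at the matched time, and 5.23% and 7.82% at the matched stage. The median log2 ratios of the group were 0.38 and 0.19, positive under every scaling tried. For znf292a, whose human counterpart is mutated in neurodevelopmental disorders, the values were 12.83 FPKM in WGA embryos at 5 hpf, 14.65 FPKM in WGA embryos at 4.3 hpf and 6.68 FPKM in control embryos. Its partner gene znf292b was at 58.36, 64.86 and 45.27 FPKM in that order. The znf703 relative znf503, also a Groucho-linked hindbrain gene, stood at 18.22 FPKM in WGA embryos at 5 hpf, 22.35 FPKM in WGA embryos at 4.3 hpf and 22.66 FPKM in control embryos. It was thus level at the matched time, where znf703 was lower. The gene znf513a, whose human counterpart is linked to retinal disease, was at 9.49, 10.62 and 5.07 FPKM (1.91-fold higher at the matched time), and znf804a, named for a human psychiatric risk gene, was at 3.12, 4.49 and 1.95 FPKM (1.86-fold higher). Both stood above control in each WGA library without passing 2-fold. The genes znf385b, znf385c, znf408, znf469, znf521 and znf704 had log2 ratios of 0.16 to 0.47 at the matched time and -0.03 to 0.24 at the matched stage. The gene listed as znf521 here has no such name in the current gene table, and a second row under the name znf521 was at or below 0.03 FPKM.

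**Figure D3:**
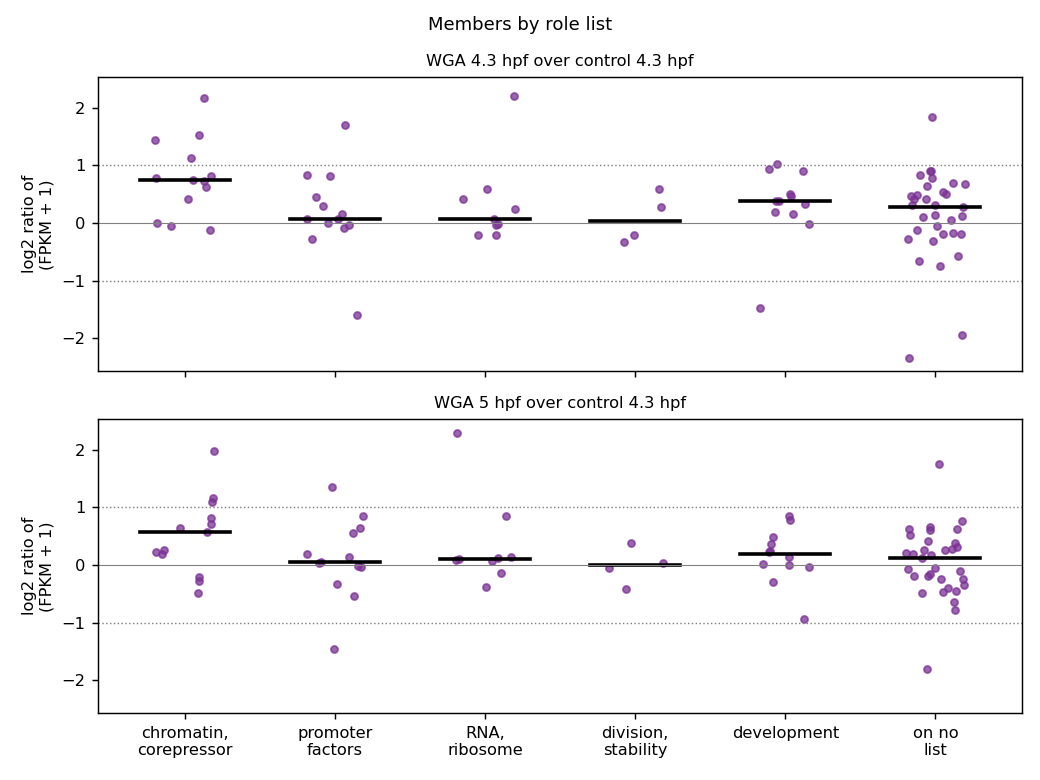
Log2 ratio of (FPKM + 1) of each of the 84 genes by role list, for WGA embryos at 4.3 hpf over control (top) and WGA embryos at 5 hpf over control (bottom). Each point is 1 gene, black bars are group medians and dotted lines mark 2-fold. The chromatin and corepressor list has the highest median in both panels (0.74 and 0.58). The corepressor gene znf703 is shown in the development list. The lists were chosen with earlier results of these data known.

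The 33 genes on no role list had 1 higher gene (znf296) and 2 lower genes (znf185 and znf569l) at the matched time. At the matched stage 1 was higher (znf296) and 1 lower (znf569l). The shares were 3.03% higher and 6.06% lower at the matched time, and 3.03% each at the matched stage. Of all genes 7.16% were higher and 8.92% lower at the matched time, and 5.23% and 7.82% at the matched stage. The median log2 ratios of the 33 genes were 0.28 and 0.12. Among those above control but short of 2-fold at the matched time were znf395b (1.87-fold), znf692 (1.87-fold), znf142 (1.77-fold), znf653 (1.71-fold) and znf865 (1.62-fold). The gene znf653 stood at 28.86 FPKM in WGA embryos at 5 hpf, 29.14 FPKM in WGA embryos at 4.3 hpf and 16.58 FPKM in control embryos. The gene znf865 was at 49.83, 52.69 and 32.15 FPKM in that order. Each had nearly equal values in the 2 WGA libraries.

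Genes past 2-fold were those of low or moderate abundance. Of the 11 genes whose mean over the 3 libraries was at least 50 FPKM, 0 were past 2-fold in either comparison with control. Of the 20 genes at 20 to 50 FPKM, 1 was past it in each (znf609a). Of the 33 genes at 5 to 20 FPKM, 7 (21.2%) were past it at the matched time and 5 (15.2%) at the matched stage. Of the 20 genes under 5 FPKM the numbers were 4 (20%) and 2 (10%). Over all genes the share past 2-fold at the matched time was likewise lower at high abundance, at 17.6% under 5 FPKM, 19.3% at 5 to 20, 14.0% at 20 to 50 and 8.54% from 50 upward. At the matched stage these shares were 14.3%, 15.2%, 12.2% and 6.62%. The pattern is therefore not particular to the zinc-finger genes.

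Genes that share a number and differ by letter came as 13 pairs in which both genes were measured. Most such pairs in zebrafish trace back to the genome duplication of bony fish. The number of znf385b and znf385c is carried by 4 genes, and whether these 2 are such a pair was not checked. The log2 ratios of the 2 genes differed by 1 or more in 4 pairs at the matched time and in 2 pairs at the matched stage. The pair znf281 was the most uneven in level. Its abundant gene znf281b averaged 126.0 FPKM over the 3 libraries and the scarce gene znf281a averaged 2.58 FPKM, a ratio of 48.9. The abundant gene was level and the scarce one low, with log2 ratios of 0.07 and -1.60 at the matched time and of 0.04 and -1.45 at the matched stage. In the pair znf106 both genes were of like abundance over the 3 libraries (13.0 and 11.5 FPKM). There znf106a had log2 ratios of 0.25 and 0.07 at the matched time and stage, whereas znf106b had 2.21 and 2.30.

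The other pairs whose ratios differed by that much at the matched time were znf609, with znf609a at 1.53 and znf609b at 0.41, and znf395, with znf395a at -0.27 and znf395b at 0.90. For znf395b the values were 16.64 FPKM in WGA embryos at 5 hpf, 19.81 FPKM in WGA embryos at 4.3 hpf and 10.13 FPKM in control embryos. In 10 of 13 pairs at the matched time, and 11 of 13 at the matched stage, the gene with the lower mean lay farther from control. That mean includes the control value, which also sets the ratio, so these counts cannot separate level from change. For example, znf106b had the lower mean but exceeded znf106a at 5 hpf (16.51 against 12.62 FPKM) and at 4.3 hpf (15.46 against 14.43 FPKM) under WGA. In 6 of 13 pairs at the matched time, and 6 of 13 at the matched stage, the partners lay on opposite sides of control. The pair znf143 did so at the matched time alone, and znf385 at the matched stage alone. The znf710 and znf800 pairs did so in both. At the matched time znf710a was at -0.19 and znf710b at 0.68, and znf800a at -0.31 and znf800b at 0.06. Reads shared by near copies may have been divided by estimate, so values of the 2 genes of a pair are less certain than the others.

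**Figure D4:**
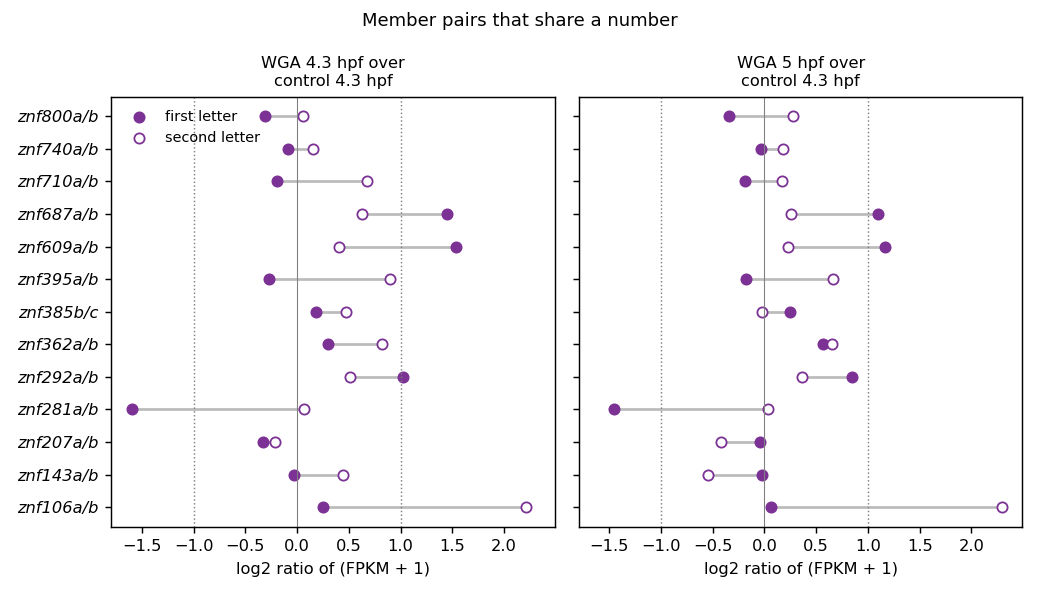
Log2 ratio of (FPKM + 1) for the 13 gene pairs that share a number, for WGA embryos at 4.3 hpf over control (left) and WGA embryos at 5 hpf over control (right). Filled circles are the gene with the earlier letter, open circles the later letter, and dotted lines mark 2-fold. The widest gaps are in znf106 and znf281, where 1 gene of the pair stays near 0.

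The low-numbered genes were set beside the genes numbered 900 or above, with the same FPKM limit. These too were chosen by name alone, and whether each is specific to zebrafish was not checked. Of those 58 genes, 0 passed 2-fold upward and 25 downward at the matched time, and 0 and 24 at the matched stage, with median log2 ratios of -0.85 in both. The downward shares were 43.1% and 41.4%, against 8.92% and 7.82% of all genes. Upward the shares of all genes were 7.16% and 5.23%. The low-numbered genes had 8 higher and 4 lower, and 6 and 2, with medians of 0.30 and 0.14. All 58 high-numbered genes reached 1 FPKM in control embryos, and 51 did in each WGA library. The genes znf1010, znf1068, znf1147 and znf1169 entered through control alone, so the FPKM limit favoured the lower side for them. Of these, znf1147 passed 2-fold downward in both comparisons. Under ribosomal protein scaling 7 of the high-numbered genes were higher and 17 lower at the matched time, where 27.9% of all genes were higher and 4.92% lower. The high-numbered median lay below that of all genes by 0.85 to 1.06 under the scalings tried at the matched time, while the low-numbered median lay above it. Since a scaling multiplies all genes of a library by the same factor, these gaps are no check either. In level, the high-numbered genes had medians of 2.88 FPKM in WGA embryos at 5 hpf, 2.92 FPKM in WGA embryos at 4.3 hpf and 7.35 FPKM in control embryos. In the NCBI gene order of assembly GRCz12tu, 2 of the 84 low-numbered genes, znf646 and znf668, had a numbered znf gene as a direct neighbour, and it was each other. Of 49 high-numbered genes found in that table, 7 (14.3%) had such a neighbour. The share was 2.38% of the 84 genes and 1.25% of all 27039 protein-coding genes.

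The zbtb genes, which pair zinc fingers with a BTB dimerisation domain, likewise had more genes above control than below it. Of 32 measured, 11 (34.4%) passed 2-fold upward and 1 (3.1%) downward at the matched time, and 6 (18.75%) and 0 at the matched stage. Of all genes 7.16% were higher and 8.92% lower at the matched time, and 5.23% and 7.82% at the matched stage. In control embryos 28 of the 32 reached 1 FPKM. The genes zbtb1, zbtb16a, zbtb37 and zbtb47b entered through a WGA library alone, so the FPKM limit favoured the upper side for them. Of these, zbtb1 and zbtb47b passed 2-fold upward in both comparisons, and zbtb37 at the matched time. Conversely, zbtb16b entered through control alone. The zbtb median log2 ratios were 0.60 and 0.38, above the low-numbered medians of 0.30 and 0.14. No test of the difference between these sets was possible with 1 library per group.

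**Figure D5:**
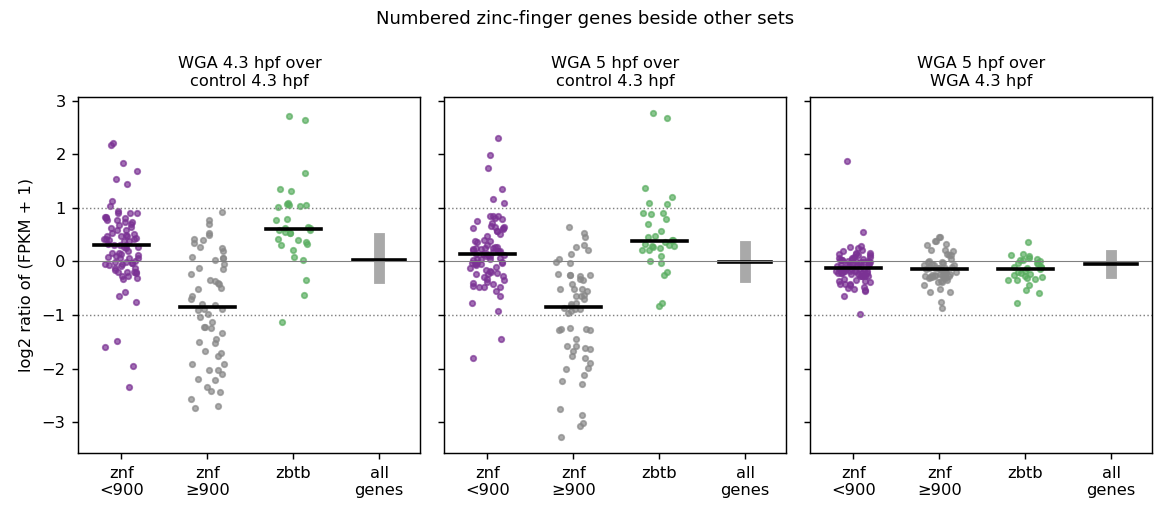
Log2 ratio of (FPKM + 1) in the 3 comparisons for the 84 low-numbered genes (left column of each panel), 58 genes numbered 900 or above, 32 zbtb genes and all 14349 genes. Points are genes, black bars are medians, the grey bar for all genes spans the middle of the distribution from the lower to the upper quartile, and dotted lines mark 2-fold. In the left and middle panels the low-numbered median lies above 0 and the high-numbered median at -0.85.

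Genes whose products are known to work with these proteins, mostly in mammals, were read from a list of 38 names, of which 33 were measured. The znf652 partner gene cbfa2t3 reached at most 0.52 FPKM in any library and was not among the 33. Past 2-fold at the matched time were 3 upward (9.09%) and 1 downward (3.03%), against 7.16% and 8.92% of all genes. At the matched stage 3 were upward (9.09%) and 2 downward (6.06%), against 5.23% and 7.82% of all genes. The median log2 ratio was -0.03 and 0.01, with signs that changed between scalings. The ZMYND8 gene zmynd8, partner of znf592 and znf687a, stood at 3.21 FPKM in WGA embryos at 5 hpf, 6.26 FPKM in WGA embryos at 4.3 hpf and 0.51 FPKM in control embryos. It was 1 of the 3 upward genes in each comparison with control. Since it entered through the WGA libraries alone, the FPKM limit favoured that side for it. As with znf592 and znf687a, the order of the libraries was WGA at 4.3 hpf, WGA at 5 hpf, control. This order is not particular to these partners. It also held for znf652, znf711, snapc4 and tle3a, and 57.3% of all genes lay lower at 5 hpf than at 4.3 hpf under WGA. The gene snapc4, of the complex that works beside znf143 on small nuclear RNA promoters, was at 11.88 FPKM in WGA embryos at 5 hpf. It was at 13.68 FPKM in WGA embryos at 4.3 hpf and 4.78 FPKM in control embryos. The Groucho gene tle3a, of the family that znf703 and znf503 recruit, stood at 85.03 FPKM in WGA embryos at 5 hpf, 90.05 FPKM in WGA embryos at 4.3 hpf and 39.17 FPKM in control embryos. In contrast, bub3, the partner of the znf207 genes, was at 3.99, 4.63 and 13.47 FPKM in that order, 2.57-fold lower at the matched time. The chromatin-assembly gene rbbp4 was past 2-fold at the matched stage alone, at 17.07 FPKM in WGA embryos at 5 hpf, 25.27 FPKM in WGA embryos at 4.3 hpf and 38.66 FPKM in control embryos. Partner genes of znf217 and znf644a (rcor1, kdm1a, hdac1, ctbp1, ehmt1a, ehmt1b and ehmt2) differed by at most 1.39-fold from control in both comparisons.

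The 17 low-numbered rows that did not reach 1 FPKM in any library were znf148, znf219, znf341, znf366, znf385a, znf385d, znf512, znf516, znf536, znf541, znf608, znf644b, znf648, znf750, znf827, znf831 and the second row named znf521. Epidermal znf750 was at 0.3 FPKM in WGA embryos at 5 hpf, listed at 0 in WGA embryos at 4.3 hpf and at 0.16 FPKM in control embryos. These low values support no comparison.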

How the data were processed

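Poly(A) RNA of whole zebrafish embryos was sequenced in 3 libraries, 1 per group. The authors deposited 1 table of FPKM values, rounded to 2 decimals, for 25386 genes. Trimmomatic 0.36, Bowtie2 2.2.5, RSEM 1.2.8 and the build GRCz11 are named, without roles, per the submitters' processing notes. Columns were matched to libraries by name. Log2 ratios of (FPKM + 1) were computed with Python 3.11.15 and pandas 2.3.3. The counting was tested on simulated data. Ratios of low values between libraries peaked at 0.993 to 1.01, where equal rounded values also fall, so relative depth was not read from them.

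The genes, role lists and partner list were chosen with earlier results of these data known. Lists were matched by the table's symbol or, for low-numbered genes, by the current symbol of the same gene number in the NCBI table of GRCz12tu, which held all 84. That table was used for names and gene order alone. Named genes are those past 2-fold, those on a role list, the 8 most abundant and the lettered pairs. Genes on no role list that lie within 2-fold, apart from those, were named after their values were seen. Alternatives were pseudocounts of 0.1 and 0.5, TPM, median-of-ratios and ribosomal protein scaling, other FPKM limits and folds of 1.5 and 4. Numbers of fingers per protein, which were planned, were not analysed here.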

Additional observations from a re-analysis of the deposited data

How the results depend on the processing

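Main counts at the matched time were 8 higher and 4 lower. The number higher was 15 with a pseudocount of 0.1, 15 with TPM, 38 with ribosomal protein scaling, 26 at a fold of 1.5 and 2 at a fold of 4, and the number lower was 1 at a fold of 4. Over all genes the shares higher under the first 4 of these settings were 10.6%, 11.1%, 27.9% and 18.0%. A fold of 4 left 0.634% of all genes higher and 2.34% lower. The median of 0.30 was 0.42 with TPM, 0.94 with ribosomal protein scaling and 0.14 with no FPKM limit. At the matched stage (6 higher, 2 lower, median 0.14), ribosomal protein scaling gave 12 higher (14.3%) and a median of 0.47. There a fold of 1.5 gave 19 higher (22.6%) and 5 lower (5.95%), and a fold of 4 gave 1 higher and 0 lower. Of all genes 10.2% were higher at the matched stage with ribosomal protein scaling, and 13.1% higher and 14.8% lower at a fold of 1.5. At a fold of 4 the shares of all genes were 0.564% higher and 1.61% lower. Between the WGA libraries (1 higher, 0 lower, median -0.12), 1 gene was lower with pseudocounts of 0.1 and 0.5, TPM and ribosomal protein scaling, and 2 were lower at a fold of 1.5. The number higher was 2 with a pseudocount of 0.1 and 0 at a fold of 4, and the median was -0.44 with ribosomal protein scaling. Of all genes 1.37%, 0.711%, 0.850% and 2.33% were lower with these pseudocounts, TPM and ribosomal protein scaling, and 3.78% at a fold of 1.5. The shares of all genes higher were 2.01% with a pseudocount of 0.1 and 0.0418% at a fold of 4. Over all genes the medians were 0.67, 0.30 and -0.36 in the 3 comparisons with ribosomal protein scaling, against 0.03, -0.02 and -0.04 as deposited. None of the 3 medians over the 84 genes changed sign under these alternatives. Among the 12 genes past 2-fold, znf292a at the matched time was at 0.95 with median-of-ratios scaling, and znf703 at the matched stage passed it at -1.29 and -1.10 with pseudocounts of 0.1 and 0.5 and at -1.08 with TPM. Also newly past 2-fold were znf292a at the matched stage with ribosomal protein scaling (1.17) and znf703 between the WGA libraries with a pseudocount of 0.1 (1.00). No call changed direction under these pseudocounts and scalings. No paired analysis was possible because each group holds 1 library, which also leaves no replicate to leave out.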
